A study of Homo sapiens with 208 samples.

Results

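The change that gefitinib made in EGF-stimulated PC9M2 cells was measured by setting the arrays labelled EGF and gefitinib against those labelled EGF alone, at the same time point, from 0.5 to 24 h. These are 25 arrays in each arm, 50 of the 208 arrays of the series. PC9M2, labelled PC9GRM2 by the submitters, is a gefitinib-resistant line made from the human lung adenocarcinoma line PC9 by culture with the drug. PC9 carries an activating deletion in the tyrosine kinase domain of EGFR, PC9M2 is 1 clone among the resistant lines made, and the study describes it as free of the common secondary EGFR mutation and of MET amplification. All cells were starved of serum for 48 h. Gefitinib was given at 0.5 µM from 2 h before the start of a course, and EGF at 100 ng/ml from 0 h. The remaining PC9M2 courses (gefitinib alone and no treatment) and the same pair of EGF courses in PC9 are used below only to see where this response differed. Expression was measured on one-colour Agilent oligonucleotide arrays, 1 array per line, treatment and time.

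EGF binds the receptor tyrosine kinase EGFR, which signals through the RAS-RAF-MEK-ERK cascade and through PI3K and AKT. Gefitinib occupies the ATP pocket of EGFR and blocks its kinase. ERK output is commonly read from its feedback genes, the dual-specificity phosphatases, Sprouty and SPRED genes and the ETV factors. AKT output is read in the opposite sense from genes driven by the FOXO factors, which AKT keeps out of the nucleus.

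There were no replicate arrays, so time points stand in for replicates, and p-values measure the spread of the difference over a course, where neighbouring points were not independent (median lag-1 autocorrelation 0.35 over tested genes). Between 27686 and 33020 of 43376 features were well above background on the 50 arrays and none was saturated. A slide carried the 4 treatments of a line for one time, always in the same places, so the place on the slide and the treatment cannot be told apart, and the slides were scanned on 9 days that ran against the order of time. Of 9 epithelial lung markers, 7 were well above background on all 50 arrays, including EPCAM, CDH1, KRT8 and NAPSA. The used probe of NKX2-1 reached that level on 1 array, another of its probes on 47 arrays, and SFTPB on 20 arrays. COL3A1 and PTPRC, which mark fibroblasts and blood cells, were above background on 0 arrays and DCN on 3, whereas CD14, PECAM1 and VWF were above it on all 50.

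At 0.5 h the pair of PC9M2 arrays went against its labels. The differences between the arms at 0.5 h correlated at -0.39 over genes with the mean of the other time points, while each time point from 1 to 24 h gave a correlation of 0.4 to 0.92. DUSP6, a phosphatase that dephosphorylates ERK, was at a log2 intensity of 7.75 on the array labelled EGF and at 12.54 on the array labelled EGF and gefitinib. From 1 to 24 h it lay between 12.59 and 13.89 with EGF and between 7.85 and 11.53 with gefitinib added. At 0 h, after 2 h of gefitinib, it was at 12 without gefitinib and 7.51 with it. TNFSF10, BMF and FOSL1 were reversed in the same way at 0.5 h. The labels were kept and the cause was not tested. Results are given over all 25 pairs as labelled and over the 24 pairs from 1 to 24 h, and levels and counts stated without a number of pairs are from the 24.

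**Figure D1:**
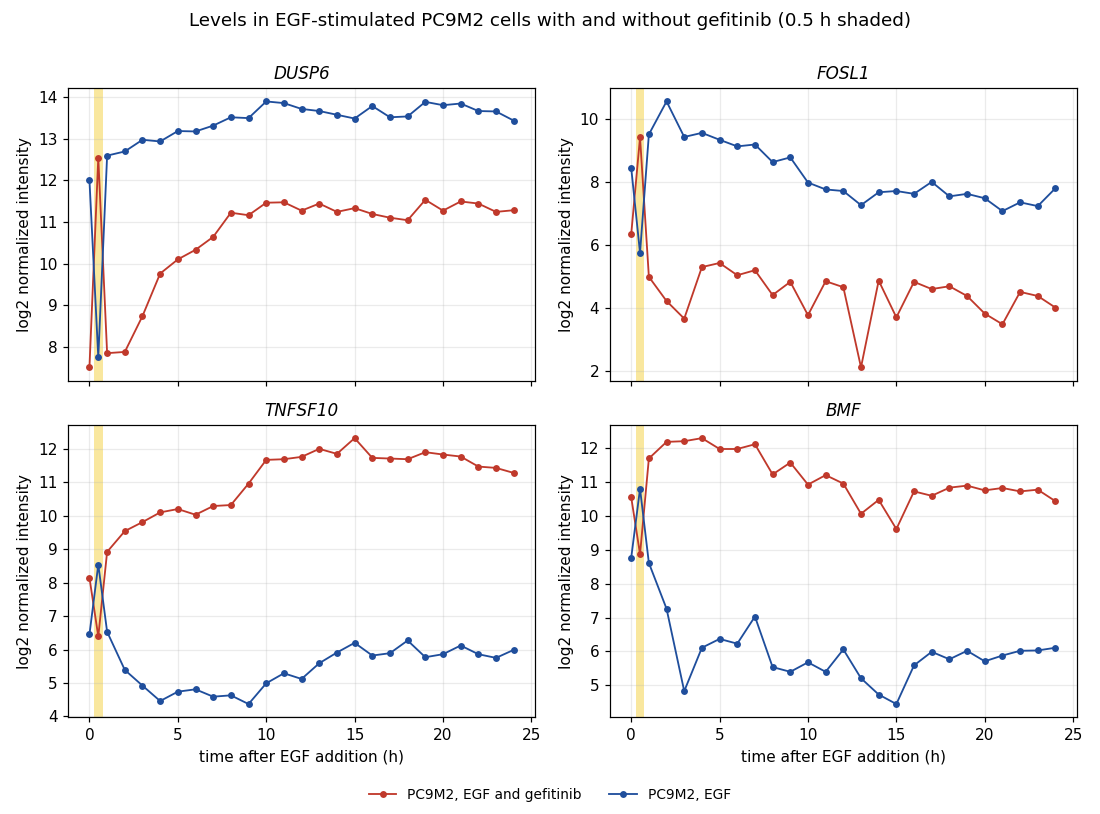
Log2 normalized intensity (y axis) against time after EGF addition in hours (x axis) for DUSP6, FOSL1, TNFSF10 and BMF in PC9M2 cells with EGF and gefitinib (red) and with EGF (blue), 1 array per point. At the shaded 0.5 h point the arms cross, so that DUSP6 is at 12.54 in the red course and 7.75 in the blue one, and in the 24 later points the courses of each gene do not overlap.

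Gefitinib moved most of the measured transcriptome in EGF-stimulated PC9M2 cells, though mostly by little. Over 25 pairs, 9927 of 13263 tested genes passed limma at a Benjamini-Hochberg adjusted p under 0.05 (74.8%), 4884 higher with gefitinib (36.8%) and 5043 lower (38%). Over 24 pairs the numbers were 10033 (75.6%), 4923 (37.1%) and 5110 (38.5%), and 9883 genes were called both ways, all with the same sign. The median absolute difference was 0.38 log2 over 25 pairs and 0.4 over 24, and the median difference was -0.02. A mean difference of at least 2-fold, that is 1 on the log2 scale, was reached by 1107 genes that rose (8.35%) and 856 that fell (6.45%) over 25 pairs, and by 1219 (9.19%) and 945 (7.13%) over 24. In 335 genes (2.53%) every array with gefitinib was above every array without it, and in 296 (2.23%) every one was below. Because so many genes passed the test, the lists of genes below are read against these shares.

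ERK feedback and ERK target genes fell as a group. Of 27 tested, 25 were lower with gefitinib and 0 higher over both 25 and 24 pairs, with a median difference of -1.16 and -1.24 beside -0.02 over all genes, and 9 members had arms that did not overlap. DUSP6 fell by 2.73 ± 0.15 (SE, 24 time points, limma adjusted p = 9.02e-15), and by 2.43 over 25 pairs. FOSL1, which encodes the AP-1 subunit FRA-1, had a lowest, median and highest log2 intensity of 7.08, 7.79 and 10.57 with EGF and of 2.11, 4.56 and 5.43 with gefitinib. The arms were apart at every time from 1 h. The mean difference of FOSL1 was -3.85 ± 0.18 (adjusted p = 4.9e-16, limma), a 14.4-fold fall, and -3.55 over 25 pairs. This probe was well above background on 17 of 24 arrays with gefitinib, and a second FOSL1 probe, above it on all 24 of each arm, gave -3.42. PHLDA1, a pleckstrin-homology protein gene induced by ERK, fell by 2.52 and DUSP4, a nuclear ERK phosphatase, by 1.33, both also without overlap. The 3 other probes of PHLDA1 gave -1.65 to -2.18.

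The Sprouty and SPRED genes encode inhibitors of RAS-ERK signalling. SPRY4 was at 9.69, 10.3 and 11.54 (lowest, median, highest) with EGF and at 4.68, 8.58 and 9.25 with gefitinib, with no overlap. It fell by 2.17 ± 0.29 (limma adjusted p = 1.76e-07), and by 1.88 over 25 pairs. SPRED1 and SPRED2 each fell by 1.24, SPRY2 by 0.95 and SPRY1 by 0.51. The ETS factors ETV1, ETV5 and ETV4 fell by 1.47, 1.37 and 0.95. EPHA4 and TFPI2 were the members not called, at -0.12 and -0.1.

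The fall was deepest early and smaller later. The median of the ERK list was -1.49 over 1 to 8 h, -1.18 over 9 to 16 h and -0.95 over 17 to 24 h, while the median absolute difference over all genes went from 0.35 to 0.44 to 0.5. Of the 27, 16 had a positive slope over time that passed limma and 3 a negative one, beside 26.9% and 25% of all genes over 24 pairs and 24.7% and 23.7% over 25. DUSP6 with gefitinib was at 7.85 at 1 h, 9.76 at 4 h and 11.22 at 8 h, and from then on between 11.04 and 11.53, a mean of 2.36 below the EGF course over 9 to 16 h and again over 17 to 24 h. SPRY4 with gefitinib went from 4.68 at 1 h to 8.19 at 4 h and to 9.2 at 12 h. SPRED1 went from 4.59 at 3 h to 7.34 at 12 h, where the EGF course was at 7.89. CCND1, the D-type cyclin that drives G1, differed by -1.81 over 1 to 8 h and by -0.21 over 17 to 24 h.

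Immediate-early genes, whose transcription starts within minutes of a growth signal, did not move as one group. Over 24 pairs 5 of 27 were higher, 11 lower and 11 not called (5, 9 and 13 over 25 pairs), and the median was -0.26. EGR3, a zinc-finger factor, fell by 2.97 ± 0.21 (limma adjusted p = 8.96e-13), with 5.95 to 9.5 in the EGF arm and 2.86 to 5.38 in the gefitinib arm. JUN fell by 1.49, DUSP2 by 1.82, and BTG2, an antiproliferative gene, rose by 1.32. EGR1 was not called, at 0.15 ± 0.29 (adjusted p = 0.656), and neither was FOS, at -0.45 ± 0.22 (adjusted p = 0.0711, limma). The mean hid a course that crossed. At 1 h EGR1 was at 12.85 with EGF and 7.21 with gefitinib, at 4 h at 9.17 and 10.27, and at 13 h at 10.54 and 11.27. FOS stood at 11.2 and 6.58 at 1 h, and its difference over 17 to 24 h was 0.17.

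The genes of 4 EGFR ligands fell. Of 7 tested ERBB ligand genes 4 were lower and 0 higher, with a median of -1.45 (-1.34 over 25 pairs). HBEGF was at 8.76, 10.02 and 11.47 with EGF and at 6.04, 6.93 and 7.39 with gefitinib. The arms did not overlap, and the mean difference was -3.25 ± 0.09 (limma adjusted p = 2.2e-20), or -3.02 over 25 pairs. AREG, the amphiregulin gene, was at 10.12, 10.69 and 11.64 with EGF and 7.75, 8.17 and 9.29 with gefitinib. It fell by 2.48 ± 0.09 (adjusted p = 1.44e-18, limma), 2.28 over 25 pairs, also without overlap. TGFA fell by 1.45. EREG fell by 1.82 on a dim probe, and a second, bright probe gave -1.83. EGF, BTC and NRG4 were at -0.01, 0.16 and 0.21, not called.

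Receptor genes went both ways. EGFR itself, the drug target, was lower by 0.24 ± 0.04 (limma adjusted p = 1.67e-05, lower at 20 of 24 times, -0.24 over 25 pairs as well), with 10.92 to 11.56 with EGF and 10.8 to 11.61 with gefitinib, so that the arms overlapped almost wholly. ERBB3, the kinase-impaired partner receptor, was at 8.97, 9.67 and 10.17 with EGF and at 10.91, 11.66 and 12.42 with gefitinib. It rose by 2.03 ± 0.1 (adjusted p = 4.16e-16, limma) without overlap, 1.92 over 25 pairs. ERBB2 rose by 1.42 at 23 of 24 times. CBLB, a ubiquitin ligase for receptors, rose by 1.24, and ERRFI1, an inhibitor that binds the EGFR kinase, fell by 1.59. In all, 5 of 14 genes of ERBB receptors and their inhibitors rose and 8 fell over both sets of pairs, median -0.26.

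Among 13 other receptor kinases and ligands, 4 rose and 6 fell, median -0.19. FGFR3 had the largest change of them. It was at 7.85, 8.48 and 9.49 with EGF and at 9.19, 12.34 and 12.71 with gefitinib, overlapping only through the 1 h array, and rose by 3.54 ± 0.22 (limma adjusted p = 1.01e-13), 3.42 over 25 pairs. A second FGFR3 probe gave 2.87. INSR, the insulin receptor gene, rose by 1.46 and MET fell by 1.58.

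Most genes held down by PI3K-AKT signalling through FOXO rose. Of 27 tested, 24 were higher and 3 lower over 24 pairs (23 and 3 over 25), the median was 1.32 (1.25 over 25) and 12 had arms that did not overlap. SELENOP, which encodes the secreted selenium carrier, was at 5.51, 6.74 and 7.33 with EGF and at 8.22, 11.17 and 11.98 with gefitinib. It rose by 4.2 ± 0.19 (limma adjusted p = 2.19e-16), 18.4-fold, and by 3.99 over 25 pairs. PIK3IP1, an inhibitor of PI3K, was at 2.86, 5.18 and 6.21 with EGF and at 8.52, 9.16 and 10.01 with gefitinib. It rose by 4.03 ± 0.12 (adjusted p = 3.37e-20, limma), and by 3.77 over 25 pairs. Both genes had separate arms at every time from 1 h.

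PDK4, which blocks pyruvate entry into the citric acid cycle, rose by 3.04 (1.65 on a dim second probe). BCL6, a transcriptional repressor, rose by 2.43, KLHL24 by 2.28 and FBXO32, the atrogin-1 ubiquitin ligase, by 2.25. The members that fell were GADD45A (-1.4), SOD2 (-0.75) and IRS1 (-0.42). Here too the difference shrank, with list medians of 1.6, 1.31 and 1.05 over 1 to 8, 9 to 16 and 17 to 24 h, 14 called negative slopes and 3 positive. FBXO32 differed by 3.32 over 1 to 8 h and by 1.38 over 17 to 24 h. CCNG2, an atypical cyclin, went from 2.07 to -0.04, since its level without gefitinib rose from 5.92 at 3 h to 10.1 at 12 h.

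DEPP1, a small FOXO-induced gene that was not on the list, was at 6.38, 8.06 and 8.8 with EGF and at 10.83, 12.08 and 12.98 with gefitinib. Its arms lay apart, and the rise of 4.01 ± 0.09 (adjusted p = 4.02e-22, limma) was 3.71 over 25 pairs. Of the 10 genes with the largest rise over 24 pairs among those well measured in each arm (the rule is given with the other large changes), 9 had a promoter entry in RefSeq, and the forkhead core GTAAACA, read on either strand, lay within 250 bases before the start of 3 of them (33.3%). It lay in 2.98% of 35116 promoters, and in 1.96% of the 10690 promoters of tested genes. Of 23 promoters of the FOXO list, 3 held it (13%). These windows are shown because the matches fall in strongly raised genes, with the match in capitals. All are from RefSeq, build GRCh38.p14, and are written 5′ to 3′ on the strand of the gene: SELENOP (chr5:42811893-42812142, minus strand), DEPP1 (chr10:44978810-44979059, minus strand) and ATP6V1B1 (chr2:70935650-70935899, plus strand), which holds the reverse complement TGTTTAC.
SELENOP: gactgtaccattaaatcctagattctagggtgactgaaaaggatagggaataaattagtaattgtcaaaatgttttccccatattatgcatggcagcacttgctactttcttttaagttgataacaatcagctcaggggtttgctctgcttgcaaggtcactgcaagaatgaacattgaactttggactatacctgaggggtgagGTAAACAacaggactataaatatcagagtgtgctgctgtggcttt
DEPP1: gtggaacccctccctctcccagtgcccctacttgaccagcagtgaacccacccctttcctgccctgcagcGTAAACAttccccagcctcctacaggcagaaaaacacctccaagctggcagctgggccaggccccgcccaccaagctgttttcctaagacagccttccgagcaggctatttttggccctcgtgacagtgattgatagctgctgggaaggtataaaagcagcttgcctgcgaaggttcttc
ATP6V1B1: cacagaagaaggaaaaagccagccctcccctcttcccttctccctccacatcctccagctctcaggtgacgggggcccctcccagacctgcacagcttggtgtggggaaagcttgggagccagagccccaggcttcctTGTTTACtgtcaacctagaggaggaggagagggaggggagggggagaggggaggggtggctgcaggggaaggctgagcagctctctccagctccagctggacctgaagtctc

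The matches lay 45 to 39 bases before the start of SELENOP, 180 to 174 before DEPP1 and 112 to 106 before ATP6V1B1. AP-1 (TGANTCA), ETS (CCGGAAG), CRE (TGACGTCA) and E-box (CACGTG) letters and the CArG box were searched in the same windows on both strands, and none of these strings contains another. They lay in 6.57%, 8.52%, 1.65%, 6.34% and 1.16% of all promoters. Among promoters of tested genes the shares were 4.17%, 15.1%, 2.78%, 8.64% and 1.08%. Of the 9 promoters of the most raised genes, AP-1 letters lay in 1 (CSF1R) and each of the others in 0. The promoter of EGR1, whose course crossed between the arms, held 2 CArG boxes, the element bound by serum response factor (chr5:138465229-138465478, plus strand), shown in capitals. Of 22 promoters of immediate-early genes 2 held one. A match is a run of letters and was not tested for binding.
EGR1: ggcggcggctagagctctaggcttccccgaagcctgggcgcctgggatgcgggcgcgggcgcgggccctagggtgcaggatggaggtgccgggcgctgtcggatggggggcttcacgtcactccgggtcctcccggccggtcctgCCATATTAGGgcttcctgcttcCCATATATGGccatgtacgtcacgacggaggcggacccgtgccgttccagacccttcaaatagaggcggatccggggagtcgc

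Genes of cell death changed strongly in a few members. BMF, a BH3-only gene whose product counters BCL2-type survival proteins, was at 4.45, 5.94 and 8.61 with EGF and at 9.61, 10.9 and 12.29 with gefitinib. The arms did not overlap. The rise was 5.2 ± 0.16 (limma adjusted p = 5.89e-20), 36.8-fold, and 4.92 over 25 pairs. HRK, another BH3-only gene, rose by 1.93, but its second probe gave 0.49. BCL2L11, the BIM gene, rose by 0.95 on a dim probe and by 0.5 to 1.16 on 3 brighter ones. Of 9 BH3-only genes 6 rose and 3 fell (6 and 2 over 25 pairs), with a median of 0.36.

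On the survival side BCL2L1, the BCL-XL gene, fell by 1.66 ± 0.1 (limma adjusted p = 1.31e-13, 1.55 over 25 pairs) with levels of 5.94 to 8.23 with EGF and 4.08 to 5.57 with gefitinib, and MCL1 fell by 0.85, both without overlap on the probe used. The other probes of MCL1, bright on all arrays, gave -0.12 and -0.24. BCL2 differed by -1.6 over 1 to 8 h and by 0.53 over 17 to 24 h. Of 7 survival and effector genes of the BCL2 family 1 rose and 5 fell over both sets of pairs, median -0.45.

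TNFSF10, the death ligand TRAIL, had the largest mean rise of the tested genes over 24 pairs. It was at 4.37, 5.67 and 6.53 with EGF and at 8.92, 11.57 and 12.32 with gefitinib, with no overlap from 1 h. The difference was 5.64 ± 0.18 (adjusted p = 1.32e-19, limma), 49.9-fold, and 5.33 over 25 pairs. The rest of the death receptor list was mixed, with 6 of 14 members higher and 6 lower. CASP10 rose by 1.36 on a probe above background on 7 and 1 of the 24 arrays with and without gefitinib. Its other probes, above background on all 24 arrays of each arm, gave 1.28 and 1.26. BIRC3, an inhibitor of apoptosis, fell by 2.06 and the receptor gene FAS fell by 1.32.

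**Figure D2:**
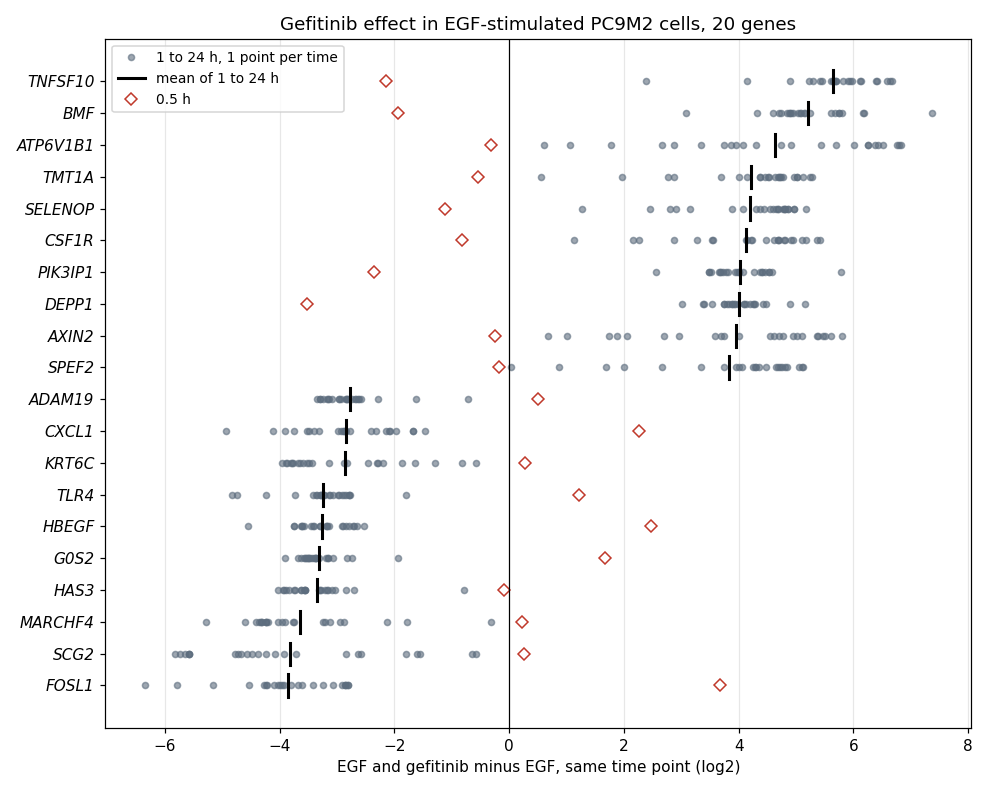
Difference in log2 intensity, EGF and gefitinib minus EGF, at the same time point (x axis) for 20 genes in PC9M2 (rows), the 10 largest rises and 10 largest falls over 1 to 24 h among called genes well above background on 13 or more arrays of each arm and of 1 sign at all 24 times. Grey points are the 24 time points, black bars their means, and red diamonds the 0.5 h pair, which lies on the other side of 0 from the mean for each of the 20 genes except HAS3, at -0.09.

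The 10 largest rises and 10 largest falls were then taken among called genes that were well above background on 13 or more arrays of each arm and had a difference of 1 sign measured at all 24 times. Some larger changes lay outside this rule. Among the rises, BMP3 (3.97) was too dim with EGF. CSF2 (-4.69), CD274 (-4.14) and EGR3 (-2.97) were too dim with gefitinib, and HSD3B1 (-4.39) lacked 1 value. The 20 genes held 5 further rises. ATP6V1B1, a subunit of the vacuolar proton pump, was at 4.56, 6.23 and 7.45 with EGF and at 7.28, 10.95 and 11.6 with gefitinib. Only the lowest gefitinib array overlapped the EGF arm, and the rise was 4.64 ± 0.36 (limma adjusted p = 9.33e-12), 4.44 over 25 pairs. TMT1A, a thiol methyltransferase gene, rose by 4.21 ± 0.22 and CSF1R, a receptor tyrosine kinase best known from macrophages, by 4.13 ± 0.21, both without overlap (4.02 and 3.94 over 25 pairs). A dim second TMT1A probe gave 2.09. AXIN2, a scaffold of the beta-catenin destruction complex and a beta-catenin target, was at 4.15, 5.84 and 7.68 with EGF and at 8.36, 10.05 and 10.65 with gefitinib. It rose by 3.95 ± 0.3 (adjusted p = 5.21e-12, limma), 3.79 over 25 pairs, and by 1.91 on a dimmer second probe. SPEF2, a gene of the sperm flagellum and cilia, rose by 3.82, while its 2 other probes, above background on no array of the arms, gave 0.01 and 0.02.

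Among the falls, SCG2, a secretogranin gene, was at 7.5, 10.66 and 11.11 with EGF and at 5.19, 6.46 and 7.38 with gefitinib. It fell by 3.82 ± 0.32 (limma adjusted p = 3.55e-11) without overlap, 3.66 over 25 pairs. MARCHF4, a membrane ubiquitin ligase gene, fell by 3.65, G0S2, an inhibitor of fat breakdown, by 3.32, TLR4, the receptor for bacterial lipopolysaccharide, by 3.25 and ADAM19, a metalloprotease gene, by 2.77, each also without overlap (3.49, 3.12, 3.07 and 2.64 over 25 pairs). HAS3, a hyaluronan synthase gene, fell by 3.35, though its second, dim probe gave 0.35. KRT6C fell by 2.86 and KRT6A by 2.74, keratin genes so alike that the arrays may not separate them. CXCL1 fell by 2.85 with overlapping arms.

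When the same rule was applied to all 25 pairs as labelled, it picked genes whose 0.5 h difference had the sign of the rest. The largest rises were then RTN4RL1 (3.62), SEMA3E (3.43), CD82 (2.91), LMO2 (2.84) and TMPRSS2 (2.6), and the largest falls HAS3 (-3.22), C12orf56 (-2.02), BMAL2 (-1.94), FST (-1.76) and ANXA3 (-1.74). The lists of 10 shared 0 rises and 1 fall, HAS3. SEMA3E, a secreted guidance factor, was at 4.61, 5.83 and 6.51 with EGF and at 6.86, 9.82 and 10.59 with gefitinib, without overlap. RTN4RL1 rested on 1 probe, since its second gave 0.3 over 24 pairs.

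A few genes were well above background in only 1 arm over 1 to 24 h on the probe used. They were picked for that split among genes called by limma, so their p-values add no separate support for it. BMP3, a member of the bone morphogenetic protein family, reached that level on 22 arrays with gefitinib and 0 with EGF, at least 3.47-fold higher (limma adjusted p = 5.44e-13). DNAI7, of the ciliary dynein machinery, had the same 22 and 0 arrays and was at least 3.11-fold higher (limma adjusted p = 2.2e-13). In each bound the dim arm was set no lower than the lowest signal well above background on its array. KIAA1755 was above background on 24 arrays with EGF and 0 with gefitinib, at least 2.83-fold lower with the drug (limma adjusted p = 2.3e-14), and its second probe was above it on 1 array with EGF and 0 with gefitinib. FMO5 and OTUB2 met the rule on the probe used, but other probes of both genes were above background in both arms, so no bound is given. Over 25 pairs no gene met this rule.

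DNA replication genes fell, while the G1 and mitotic lists held genes that rose and genes that fell. Of 36 DNA replication genes 33 were lower and 0 higher over both sets of pairs, and the median was -0.7 (-0.67 over 25). RRM2, the small subunit of ribonucleotide reductase, was at 7.48, 9.51 and 10.75 with EGF and 6.08, 7.66 and 8.8 with gefitinib, overlapping, and lower at 24 of 24 times by 1.99 ± 0.07 (limma adjusted p = 2.51e-18, 1.9 over 25 pairs). MCM10 fell by 1.6 and CDC6 by 1.44, genes for proteins that load and start replication forks. CCNE1, the cyclin of the G1 to S transition, was at 13.84 to 15.13 with EGF and 11.8 to 12.63 with gefitinib. It fell by 2.49 ± 0.07 (adjusted p = 7.44e-21, limma) without overlap, 2.35 over 25 pairs. CDKN1C, the CDK inhibitor p57, rose by 1.99 and CDKN1B, p27, by 0.47, whereas CDKN1A, p21, fell by 1.56. Over the 23 G1 genes 8 rose and 12 fell (7 and 12 over 25), median -0.2.

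Mitotic genes moved less and later. Of 34, 8 were higher and 20 lower over both sets of pairs, and the median was -0.28. It went from 0.15 over 1 to 8 h to -0.41 and -0.66 in the later windows, and 25 members had a called negative slope. MAD2L1, a spindle checkpoint gene, fell by 1.15 and MKI67, the proliferation marker, by 0.38.

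**Figure D3:**
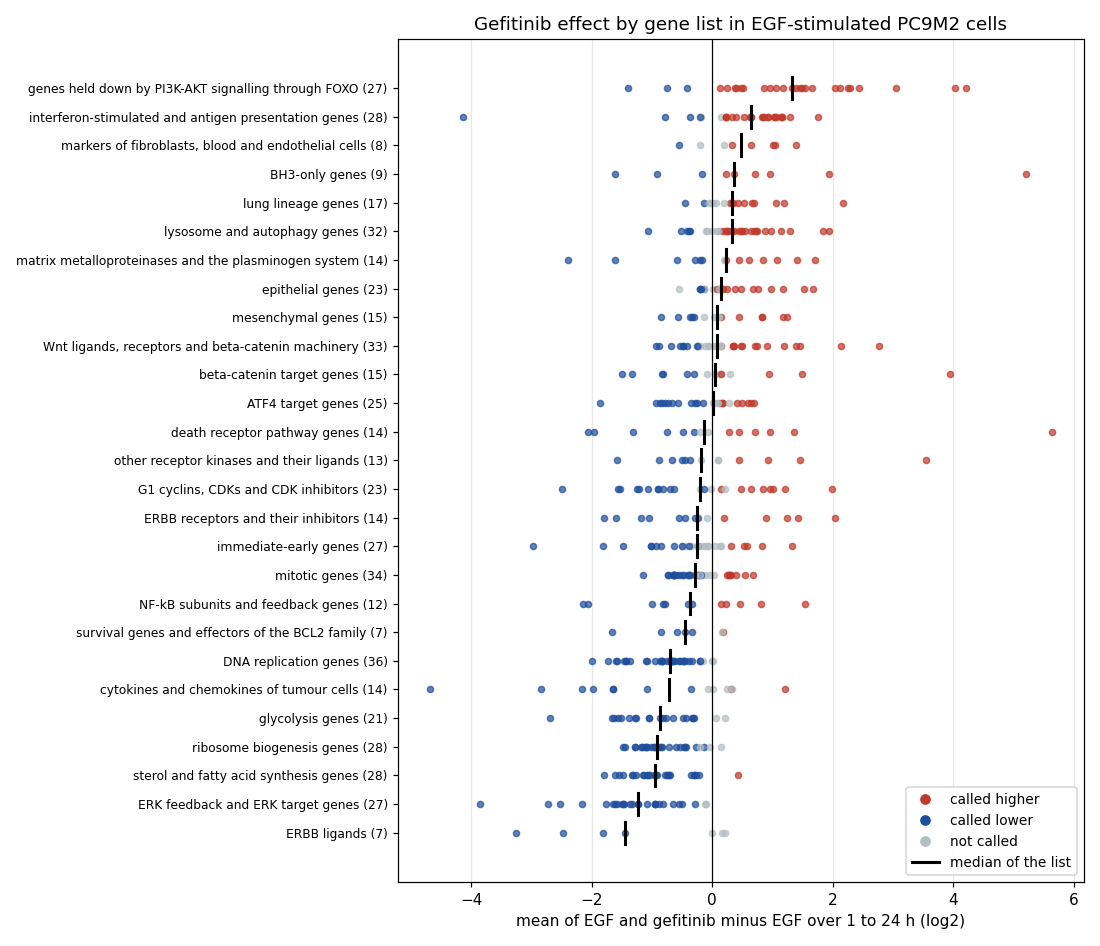
Mean difference in log2 intensity, EGF and gefitinib minus EGF over 1 to 24 h in PC9M2 (x axis), for the tested members of 27 gene lists (rows, number tested in parentheses). Points are genes, red where called higher, blue where called lower and grey where not called, and black bars are list medians, which run from -1.45 for ERBB ligands to 1.32 for the FOXO list.

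Metabolic and growth genes fell in 3 lists. Of 21 glycolysis genes 19 were lower and 0 higher over both sets of pairs, median -0.87, and 6 had separate arms. PDK1, the kinase that inactivates pyruvate dehydrogenase, was at 10.37, 12.29 and 12.52 with EGF and at 8.47, 9.34 and 9.87 with gefitinib. It fell by 2.7 ± 0.13 (limma adjusted p = 7.35e-16), 2.58 over 25 pairs. HK2, hexokinase 2, fell by 1.56 and SLC2A1, the glucose transporter GLUT1, by 1.05, the latter without overlap. Of 28 sterol and fatty acid synthesis genes 27 were lower and 1 (FADS2, 0.43) higher, median -0.95, and the median deepened from -0.45 over 1 to 8 h to -1.2 over 17 to 24 h. HMGCS1, of the mevalonate pathway, fell by 1.32 (0.85 on its second probe), and the second probe of FADS2 gave 0.05. Of 28 ribosome biogenesis genes 25 were lower and 0 higher, median -0.92, with 7 without overlap, and this fall shrank with time, from -1.23 to -0.64. POLR1B, a subunit of RNA polymerase I, fell by 1.49 and NOP56 by 1.28 (0.7 and 1.21 on its other probes).

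Lysosome and autophagy genes were more often higher, at 20 of 32 against 5 lower over both sets of pairs, median 0.32. CTSF, a cathepsin gene, rose by 1.93 and ULK1, the kinase that starts autophagy, by 1.84, both without overlap. ATF4 target genes were mixed, with 8 of 25 higher and 12 lower (9 and 12 over 25 pairs), median 0.01. SLC7A11, the cystine transporter gene, fell by 1.87.

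Some cytokine genes fell steeply, and most interferon-stimulated genes rose. CSF2, the GM-CSF gene, was at 6.68, 7.36 and 8.73 with EGF, and with gefitinib it was well above background on 1 of 24 arrays, at 1.91 to 4.68. Its measured difference was -4.69 ± 0.17 (limma adjusted p = 2.48e-18), -4.32 over 25 pairs. CXCL2 fell by 2.16 on a probe above background on 4 of 24 arrays with gefitinib, and by 1.08 on a brighter one. CXCL8, the neutrophil chemokine IL-8, was well above background on 0 of 24 arrays with gefitinib and on 9 with EGF, where it went from 2.05 at 1 h to 6.98 at 24 h. Of 14 cytokine and chemokine genes 2 rose and 8 fell over both sets of pairs, median -0.72. Of 12 NF-kB genes 5 rose and 7 fell, and TNFAIP3, the feedback inhibitor A20, fell by 2.14.

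Of 28 interferon-stimulated and antigen presentation genes 22 were higher and 4 lower over both sets of pairs, median 0.64. NLRC5, the activator of MHC class I genes, rose by 1.75 on a probe above background on 10 of 24 arrays with EGF, and a probe bright on all arrays gave 0.69. MX1, an antiviral GTPase gene, rose by 1.28 without overlap. CD274, the PD-L1 gene, went the other way. It was at 6.83, 7.95 and 8.49 with EGF and at 1.8, 3.62 and 7.43 with gefitinib, above background on only 5 arrays there, and fell by 4.14 ± 0.2 (limma adjusted p = 5.24e-16), 3.82 over 25 pairs. Markers of fibroblasts, blood and endothelial cells moved with these genes, with 5 of 8 tested members higher, 1 lower and a median of 0.48. The log2 of their summed intensity was 9.85 to 10.37 with EGF and 9.91 to 10.99 with gefitinib. COL3A1 and PTPRC were well above background on 0 arrays, and the part of these markers in the result was not tested.

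Wnt genes, which the study followed in this resistant line, moved both ways. Of 33 Wnt ligands, receptors and machinery genes 14 rose and 9 fell over both sets of pairs, median 0.08. FZD7 rose by 0.9 ± 0.07 (limma adjusted p = 1.81e-11, 0.83 over 25 pairs), with 9.94 to 10.78 with EGF and 10.73 to 11.93 with gefitinib, overlapping. FZD9 fell by 0.89 ± 0.1 (0.83 over 25 pairs). FZD5 was at 0.07 and LEF1 at 0.15, not called over either set, and the other probes of FZD5 gave -0.38. TCF7L1, a TCF factor, rose by 2.76 and WNT4 by 2.14, CTNNB1, beta-catenin itself, was at -0.2, not called, and GSK3B fell by 0.69. Of 15 beta-catenin target genes 4 rose and 6 fell, so that AXIN2 at 3.95 stood beside ZNRF3 at -1.5, BMP4 at -1.33 and NKD1 at 0.13, the last not called.

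Of 14 genes of matrix metalloproteinases and the plasminogen system 7 rose and 6 fell, with MMP1, a collagenase gene, at -2.4 and MMP14 at 1.7. Epithelial genes were higher in 12 of 23 and lower in 4 (12 and 5 over 25 pairs), median 0.14, with CGN, a tight junction gene, at 1.67 and CDH1 at -0.2. Mesenchymal genes were higher in 6 of 15 and lower in 5, with VIM at -0.85 and FN1 at 1.17. Lung lineage genes were higher in 10 of 17 and lower in 2, with MUC1 at 2.17 and NAPSA at 1.19.

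The size of the gefitinib effect changed along the course for many genes. Over 25 pairs 6426 genes (48.5%) had a slope that passed limma, and over 24 pairs 6881 (51.9%). Because scan days ran against the order of time, the trend and the scan day cannot be told apart. ATP6V1B1 grew from 2.49 over 1 to 8 h to 6.19 over 17 to 24 h, a fitted change of 5.41 log2 over 1 to 24 h (adjusted p = 1.87e-08, limma). EEF1AKMT2, a lysine methyltransferase gene, grew from 0.32 to 4.25. KRT4, a keratin of stratified epithelium, went from 0.81 to 4.32, since it fell from 10.67 at 1 h to 9.1 at 24 h with EGF and rose to 13.57 with gefitinib. AXIN2 grew in the same manner, from 2.08 to 5.41, with the EGF course falling from 7.68 at 1 h to 4.15 at 24 h. RTN4RL1 and PPARGC1B completed the steepest positive slopes over 24 pairs, and over 25 AXIN2 took the place of PPARGC1B.

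The steepest negative slopes were those of HRG, CIB3, ARNT2, TNFRSF11B and ARL14 over 24 pairs, with SCG2 in place of ARL14 over 25. HRG, a plasma glycoprotein gene, differed by 1.37 over 1 to 8 h and by -2.98 over 17 to 24 h, a fitted change of -6.13. TNFRSF11B, the decoy receptor osteoprotegerin, went from 0.07 to -3.65 and ARNT2, a bHLH-PAS factor, from -0.52 to -4.39. SCG2 went from -1.78 to -5.42.

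The gefitinib effect depended on EGF in a smaller share of genes. The effect with EGF differed from that without EGF (gefitinib alone minus no treatment) in 1450 genes (10.9%) over 25 time points, 797 more positive (6.01%) and 653 more negative (4.92%), and in 2261 (17%), 1193 (8.99%) and 1068 (8.05%) over 24. The untreated array at 11 h stood apart from its neighbours in time, with an SD over genes of 1.03 around their mean where other PC9M2 arrays of the 4 courses had at most 0.75. Without the 0.5 and 11 h points the count was 2813. The balance of directions turned with time points 3 h apart (147 more positive, 241 more negative) and with a minimum size of 1 on the log2 scale (5 and 14). The ERK list was more negative with EGF in 18 of 27 genes and more positive in 0 over 24 points, and its median effect without EGF was -0.9. DUSP6 showed a difference of effects of -0.78 ± 0.05 at 24 of 24 times (adjusted p = 3.84e-11, limma), but of -0.35 (adjusted p = 0.638) with the 0.5 h point in.

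The ligand gene AREG was at 7.59 to 9.81 with gefitinib alone and 9.57 to 11.02 without treatment. Its effect with EGF exceeded that without by -1.04 ± 0.07 (limma adjusted p = 7.7e-10, -0.8 over 25). HSD3B1, a steroid dehydrogenase gene with a near-identical copy, had one of the largest differences. It was at 8.7, 9.87 and 10.38 (lowest, median, highest) without treatment, 6.14, 6.8 and 8.5 with gefitinib alone, 9.4, 10.9 and 11.08 with EGF and 5.92, 6.28 and 8.16 with both. The effects were -2.94 without EGF and -4.39 with it, a difference of -1.46 ± 0.12 (adjusted p = 6.82e-09, limma) and -1.34 over 25 points. DCLK1 (-1.59), HAS3 (-1.25), KRT6C (-1.28) and KRT6A (-1.22) completed the 5 most negative.

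On the positive side were TCF7L1 (1), LTB (0.99), PTGIS (0.95), SEMA3E (0.92) and BMF (0.88). LTB, a lymphotoxin gene, was lower with gefitinib without EGF (-0.41) and higher with it (0.58). PTGIS, prostacyclin synthase, rose by 1.91 without EGF and by 2.85 with it. BMF was not called over 25 points (0.67, limma adjusted p = 0.0818), and DAPK2, a death-associated kinase gene (0.79 over 25 points), took its place there. TCF7L1, PTGIS, SEMA3E and DAPK2, called over 25 points, each lost the call under 2 other settings, and LTB under 1. The 5 most negative genes kept theirs under all settings tried. Of the FOXO list 12 of 27 were more positive with EGF and 2 more negative.

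**Figure D4:**
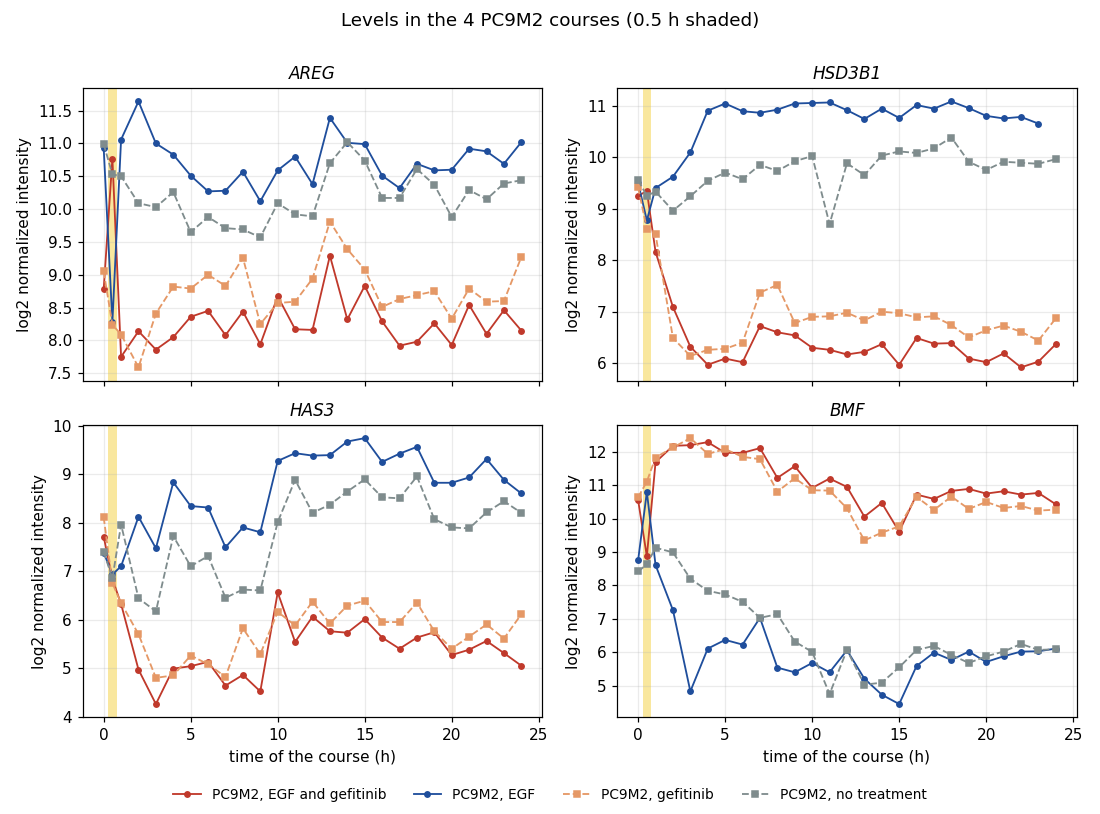
Log2 normalized intensity (y axis) against time of the course in hours (x axis) for AREG, HSD3B1, HAS3 and BMF in the 4 PC9M2 courses, EGF and gefitinib (red), EGF (blue), gefitinib (orange, dashed) and no treatment (grey, dashed), 1 array per point with 0.5 h shaded. At every time from 1 h both gefitinib courses lie below the others for AREG, HSD3B1 and HAS3 and above them for BMF, and HSD3B1 runs highest with EGF alone, at a median of 10.9 against 9.87 without treatment.

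The response of PC9M2 differed from that of the parental line, given the same EGF and drug, in 6505 genes (49%) over 25 time points, 3058 more positive in PC9M2 (23.1%) and 3447 more negative (26%), and in 6641 (50.1%), 3114 (23.5%) and 3527 (26.6%) over 24. The lines shared no slide or scan day, so the line and the batch cannot be told apart. Each effect is a difference within a slide. The PC9 arrays of these courses each held saturated features (387 to 1498), and no PC9M2 array did. The part of saturation in the differences between effects was not tested. In PC9 the median effect of the ERK list was -2.31, against -1.24 in PC9M2, and the effect was more positive in PC9M2 for 24 of 27 genes. DUSP6 with gefitinib was at 4.82, 5.98 and 9.48 in PC9 and at 7.85, 11.23 and 11.53 in PC9M2, and with EGF alone at 12.97 to 14.12 and 12.59 to 13.89. The effects were -7.25 and -2.73, a difference of 4.52 ± 0.4 (limma adjusted p = 1.25e-09), 4.67 over 25 points. The gefitinib courses ran in opposite directions, from 9.48 at 1 h to 5.85 at 24 h in PC9 and from 7.85 to 11.28 in PC9M2.

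EGR1 with gefitinib was at 5.84, 6.6 and 7.73 in PC9 and 7.21, 9.96 and 11.27 in PC9M2. Its effects were -4.35 and 0.15, a difference of 4.5 ± 0.26 (adjusted p = 1.36e-12, limma) and 4.72 over 25 points. FOS (2.55, 2.86 over 25), SPRY4 (2.52, 2.79 over 25) and ETV5 (3.34) also fell less in PC9M2 than in PC9. The effect on immediate-early genes was more positive in PC9M2 in 17 of 27 and more negative in 1. CYP24A1, the vitamin D-degrading hydroxylase, rose by 0.63 in PC9M2 and fell by 2.25 in PC9 (difference 2.88). ESPNL, an espin-like gene, and IL1RL1, the interleukin-33 receptor, were 2.78 and 2.56 more positive in PC9M2.

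**Figure D5:**
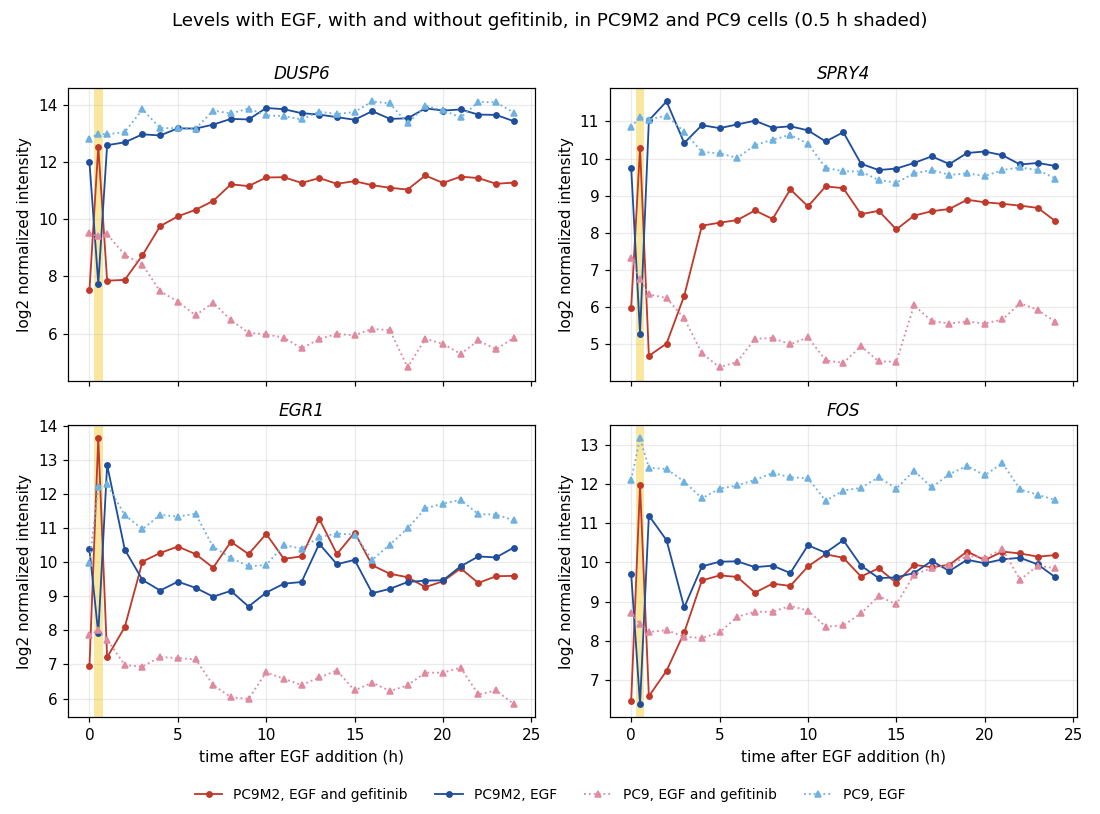
Log2 normalized intensity (y axis) against time after EGF addition in hours (x axis) for DUSP6, SPRY4, EGR1 and FOS in PC9M2 (solid lines, circles) and PC9 (dotted lines, triangles) with EGF and gefitinib (red and pink) or EGF (dark and light blue), 1 array per point with 0.5 h shaded. With gefitinib, DUSP6 rises from 7.85 at 1 h to 11.28 at 24 h in PC9M2 and falls from 9.48 to 5.85 in PC9.

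The FOXO list did not separate the lines in one direction, with medians of 1.45 and 1.32 for PC9 and PC9M2 and 8 genes more positive and 7 more negative. Sterol and fatty acid genes fell more in PC9M2, with 27 of 28 more negative there and medians of -0.95 and -0.27. Mitotic genes were at a median of -0.28 in PC9M2 and 0.29 in PC9, and 32 of 34 were more negative in PC9M2. FZD7 rose in PC9M2 (0.9) and was at -0.16 in PC9, a difference of 1.06 (limma adjusted p = 2.78e-10), and AXIN2 at 3.95 and 3.74 did not pass (difference 0.21, adjusted p = 0.0994).

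Genes with a stronger rise in PC9 included ZBED2, A4GALT, LTB, SLC25A29 and HTRA3. ZBED2, a zinc finger gene, rose by 2.8 in PC9 and fell by 0.59 in PC9M2, a difference of -3.4 ± 0.23 (limma adjusted p = 2.01e-11, -3.37 over 25 points) at 24 of 24 times. LTB with gefitinib reached 10.83 in PC9 and at most 8.17 in PC9M2 (difference -2.38). A4GALT, a glycolipid galactosyltransferase gene, was at 2.81 in PC9 and 0.1 in PC9M2. SLC25A29, a mitochondrial carrier for basic amino acids, rose in both, by 4.5 and 2.13.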

How the data were processed

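Cells of both lines were sampled at 26 times from 0 to 24 h under 4 treatments, with 1 array each (208 arrays). The authors hybridised labelled RNA to Agilent arrays and deposited scanner files from Feature Extraction 10.5.1.1, whose processed signals are background-subtracted intensity values; a deposited series table of quantile-normalized intensity has the same within-array ranks. Here the processed signals were quantile normalized over 208 arrays, set to at least 1 and log2 transformed, outlier spots were left out (0.0219% of values), spots of a probe were averaged, and 24794 of 41000 probes were named through RefSeq accessions (16961 genes, for each the probe of largest variance). A gene was tested if well above background on 13 of 26 arrays of any of 8 line and treatment courses examined (13263 genes, 3698 left out). Differences at matched times were tested against 0, or for a linear slope, with limma 3.58.1 in R 4.3.3 at a Benjamini-Hochberg adjusted p of 0.05. The tests were also run on simulated data, whose noise was independent between time points, unlike that of the measured differences.

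Genes were named by rule: the 10 largest rises and falls among called genes well above background on 13 or more arrays of each arm and of 1 sign at every time, genes measured in only 1 arm, the 5 steepest slopes and the 5 largest differences between effects each way, with the same minimum, and EGFR, FZD5, FZD7, FZD9 and LEF1; list members were chosen besides, with their values seen. The members, lists and rules were chosen with earlier results of these data known. Time points were not replicates, and no array replicates exist. The number of arrays limits the precision.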

Additional observations from a re-analysis of the deposited data

Results flagged for a closer look

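The gefitinib effect in PC9M2 was tested for a difference between courses with and without EGF, over 25 time points as labelled, and 1450 genes passed limma. The 5 most positive differences were those of TCF7L1 (0.94), LTB (0.94), PTGIS (0.9), SEMA3E (0.87) and DAPK2 (0.79) on the log2 scale. The 5 most negative were those of DCLK1 (-1.54), HSD3B1 (-1.34), KRT6C (-1.23), HAS3 (-1.2) and KRT6A (-1.17).

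The effect with EGF differed between PC9M2 and PC9 in 6505 genes over 25 time points. EGR1 (4.72), DUSP6 (4.67), FOS (2.86), SPRY4 (2.79) and CYP24A1 (2.78) were the 5 most positive in PC9M2. ZBED2 (-3.37), A4GALT (-2.58), LTB (-2.3), SLC25A29 (-2.28) and HTRA3 (-2.18) were the 5 most negative. Because the lines shared no slide or scan day, line and batch cannot be told apart.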

How the results depend on the processing

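Of 65 counts of genes called under other settings, 56 stayed within 1.5 times the value over 25 pairs. With time points 3 h apart, the counts fell to 7985 (60.2%) for the gefitinib effect and 4038 for the trend. They fell to 388 (147 more positive) for the difference with and without EGF and 2990 for the difference between the lines. A minimum size of 1 on the log2 scale left 1963 genes for the gefitinib effect, 3185 for the trend, 19 (5 more positive) for the EGF difference and 567 for the line difference. Leaving out the 0.5 h pair raised the EGF difference to 2261 genes, and leaving out the 0.5 h and 11 h points raised it to 2813; both were chosen after seeing the data. With scan day as a random block 8868 genes were called for the gefitinib effect, and with the arms not paired 8548 (64.4%). Scaling each array to its 75th percentile called 9926, of which 53.7% were higher, beside 49.2% as reported. Among named genes, FZD5 reversed to -0.23 with the mean of all probes, VIM to 0.07 over 0.5 to 12 h alone and BCL2 to 0.27 over 13 to 24 h alone, and the cause was not tested. The size of large changes also depended on the setting. Over all settings FOSL1 ran from -3.9 to -1.13 and TNFSF10 from 2.99 to 5.83. BMF ran from 3 to 5.46 and SELENOP from 2.58 to 4.57, so the folds given above hold for the main processing. Weak signals set the limit for dim probes. Their differences were larger than those of a brighter probe for CXCL2 and NLRC5 and smaller for AXIN2 and TMT1A. Treatment and slide position, and trend and scan day, cannot be told apart.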
